A study of Mus musculus with 31 samples.

Results

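Trimethylation of histone H3 at lysine 4 (H3K4me3) was compared between mouse lung adenocarcinomas that kept Nkx2-1 (positive tumors) and tumors in which it was deleted (deleted tumors). The compared members were all H3K4me3 islands on chromosomes 1 to 19, an island being a run of 200 bp windows that the authors' caller found enriched in reads. There were 40685 islands in the positive list and 30230 in the deleted list, from 4 of the 31 samples of the series. An island of the positive list is called kept where it overlaps an island of the deleted list by at least 1 bp and lost where it overlaps none, and a deleted-list island that overlaps no positive-list island is called gained.

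All tumors came from lungs of mice of mixed 129/B6 strain aged 4 to 7 months, and each H3K4me3 group held 1 library from a male and 1 from a female. Per the labels' protocols the mice had received adenovirus or lentivirus through the trachea, and tamoxifen was injected at 56 or 112 micrograms per gram of body weight. The labels give the Nkx2-1 status of each tumor but no allele, no virus and no dose for a single mouse, so whether these coincide with tumor type is not known here. Whole lung tumors were pulverized before immunoprecipitation, so the chromatin is that of all cells in the tumor. The H3K4me3 antibody was from Millipore, and the deletion of Nkx2-1 was not checked here. The 2 files of each tumor type were identical, so each tumor type is 1 merged list. No difference below therefore has a replicate check, no p-value was computed, and the 95% Wilson intervals given with shares cover counting error only.

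H3K4me3 is a mark of active and poised promoters, laid down by methyltransferases of the SET1 and MLL families, and its densest islands usually sit over the start sites of CpG-rich genes. Weak H3K4me3 is also found at active enhancers, where H3K4me1 and the acetylation H3K27ac are the usual marks. Nkx2-1 is a homeodomain protein that activates genes of lung and thyroid epithelium, and Foxa1 and Foxa2 are forkhead factors that bind enhancers in lung and gut epithelium.

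The deleted list was shorter in number, in covered bases and in reads. The positive islands covered 102 Mb and held 28.3 M reads, and the deleted islands covered 62.5 Mb and held 19.2 M reads. Reads in islands are the only depth the lists give. The median island was 1800 bp wide in the positive list and 1600 bp in the deleted list. Read density, the authors' read count divided by island width, had a median of 96.1 reads per kb in the positive list and 118 in the deleted list. Both lists had a broad group of weak islands below about 100 reads per kb and a second group of dense islands near 500, and it was the weak group of the positive list that had fewer counterparts in the deleted list. Because the number of reads differed between the lists, and because fewer cells with the mark and less of the mark per cell cannot be told apart in whole tumors, densities are read below as ranks within a list.

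**Figure D1:**
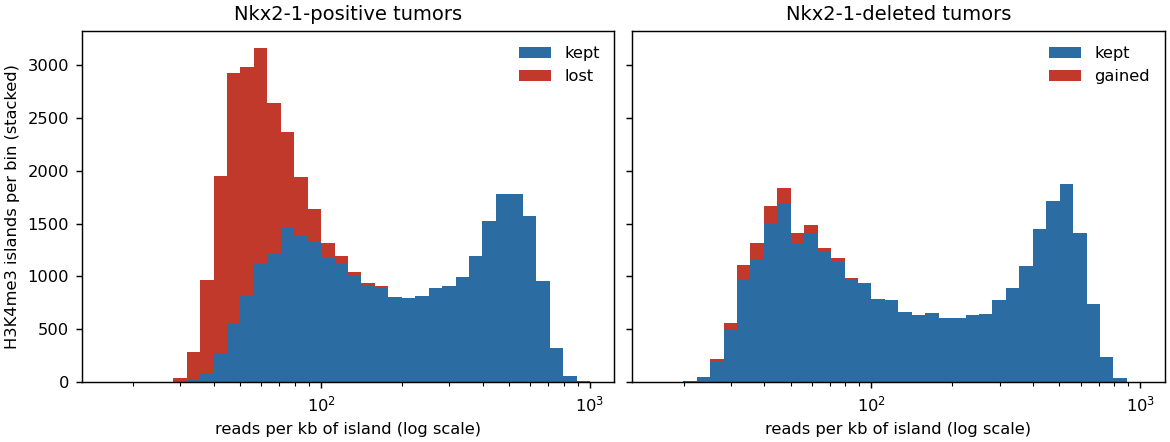
Read density of H3K4me3 islands (reads per kb of island, log scale) in positive tumors (left) and deleted tumors (right), as the number of islands per bin, with kept islands in blue and lost or gained islands stacked in red. The lost islands, with a median of 53.5 reads per kb, fill the weak peak of the positive list, while the dense peak near 500 reads per kb is nearly all kept in both lists.

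Of the positive islands, 12935 were lost, a share of 31.8% (interval 31.3 to 32.2). Of the deleted islands, 987 were gained, or 3.26% (3.07 to 3.47). The lost share lay between 26.7% (chromosome 7) and 36.4% (chromosome 16) over the 19 autosomes and was above the gained share on each of them. With unequal lists the excess of lost over gained islands depends on which islands are compared. When only the densest positive islands were used, as many as together covered no more bases than the deleted list does, an alternative chosen after seeing the data, 0.257% were lost and 40.9% of the deleted islands were gained, and when the islands with most reads were kept the shares were 0.466% and 47.4%. That limit leaves fewer positive than deleted islands and removes the weak ones, so by its construction few islands can be lost and many must be gained. When the positive list was limited to the same number of islands by read count, 16.7% were lost and 11.6% gained. With equal numbers these shares can differ only where an island overlaps several islands of the other list. This cut therefore cannot show an excess of loss over gain. In the full lists 1351 positive islands overlapped 2 or more deleted islands, and 83 deleted islands joined 2 or more positive ones. The share of 31.8% thus describes the lists as deposited, and which H3K4me3 islands were lost is the part of the comparison described next.

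In bases, 59.2% of the positive list was also in the deleted list. A further 22.1% was positive-only sequence inside kept islands, and 18.7% lay in lost islands. In one-to-one matches, in which an island of each list overlaps exactly 1 of the other, the positive-only bases came to 19.2 Mb, about as much as the 19.1 Mb of lost islands. With the islands that broke into pieces included, the positive-only bases of kept islands came to 22.6 Mb. The lost islands held 3.70% of the positive list's island reads, and the gained islands held 0.191% of the deleted list's.

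Loss was concentrated among weak islands. The positive islands were ranked by read density and divided into 10 deciles of equal number, from decile 1 (weakest) to decile 10. In decile 1, 87.3% (86.2 to 88.3) were lost, at a median density of 41.8 reads per kb. The share was 78.4% in decile 2, 65.1% in decile 3, 50.5% in decile 4 and 27.4% in decile 5. In decile 6, at 96.1 to 141 reads per kb, it was 8.63% (7.80 to 9.53), and in decile 7 it was 0.639%. In decile 8, 1 of 4069 islands was lost. In deciles 9 and 10, 0 of 8137 islands were lost, which allows a share of up to 0.0369%. This limit takes 3 islands as the upper bound of a count of 0 and is not a Wilson interval. Deciles 1 to 5 held 97.1% of all lost islands.

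Width and read number gave the same order with less contrast. Ranked by read count instead of density, 80.7% of decile 1 and 0 of the 4069 islands of decile 10 were lost. Among positive islands of at most 600 bp 63.2% were lost, against 2.21% of those over 5000 bp. Within the lowest 3 density deciles the lost share still fell with width, from 84.7% (80.3 to 88.3) at up to 600 bp to 42.3% (33.9 to 51.1) over 5000 bp. In deciles 4 to 6 it fell from 61.9% to 8.48% over the same classes, so within a density class the narrow islands were lost more often. The lost islands had a median width of 1200 bp and a median of 66 reads, against 2400 bp and 422 reads for the kept islands.

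The weakness of the lost islands was set beside the difference in reads between the lists. In the one-to-one matches of density deciles 8 to 10, where almost nothing was lost, the median count in the deleted list was 0.749 of that in the positive list. Scaled by this ratio, 92.0% of the lost islands had more than 31 reads, the upper limit of decile 1 of the deleted counts. When the positive islands at or below that scaled limit were left out, an alternative chosen after seeing the data, the lost share was 30.2%. The ratio comes from dense islands, and in matches of decile 1 it was 0.513 and of decile 5 0.438. The scaling may thus leave the weak lost islands too many reads. The limit is a rank among called islands and not the caller's threshold, so the part of depth in the loss was not tested.

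The gained islands were weak as well. They had a median width of 800 bp, 30 reads and 41.7 reads per kb, and the gained share fell from 12.8% (11.6 to 14.0) in density decile 1 of the deleted list to 0.860% in decile 5. In deciles 6 to 10, 5 islands were gained.

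**Figure D2:**
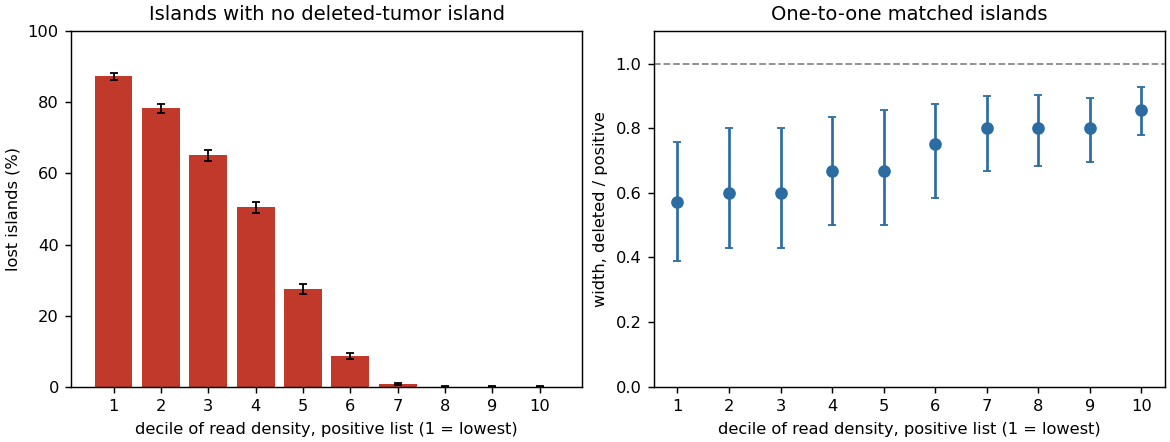
Left, share of positive-list H3K4me3 islands lost (%) by decile of read density, with 95% Wilson intervals. Right, median ratio of deleted to positive width in one-to-one matches by the same deciles, with bars from the lower to the upper quartile and a dashed line at equal width. The lost share falls from 87.3% to 0%, and the width ratio climbs from 0.571 to 0.857.

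Of the lost islands, 1 stood well above the rest in density. This island, chr7:135348201-135350400 (mm9, the build of all coordinates here), was 2200 bp wide and held 713 reads, or 324 reads per kb, which is percentile 75.5 of the positive list. It was the only lost island in deciles 8 to 10. H3K27ac covered 100% of it where Nkx2-1 was kept and 0% where it was deleted, H3K4me1 covered 100% in both, and it held 1 Nkx2-1 peak and no Foxa1/2 peak. The other two, chr5:104073201-104077200 with 215 reads per kb and chr14:78265001-78266000 with 195, kept full H3K27ac and H3K4me1 cover in both tumor types. So at 1 of these 3 regions H3K27ac was missing together with H3K4me3, and at the other two it was still called.

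The lost islands with most reads were wide ones of middling density. The island at chr16:11442801-11451600 spanned 8800 bp with 1304 reads (148 reads per kb), that at chr4:118065601-118075200 spanned 9600 bp with 1178 reads, and that at chr19:56872201-56877600 spanned 5400 bp with 967 reads. All 3 were fully under H3K27ac in tumors with Nkx2-1, and without it the cover was 100%, 100% and 85.2%. Each held at least 1 Nkx2-1 peak and at least 1 positive-tumor Foxa1/2 peak.

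The densest gained islands differed among themselves. The first, chr2:98502201-98503200 with 437 reads per kb, and the second, chr9:3022001-3022400 with 185, lay under no H3K27ac, H3K4me1 or H3K27me3 island in either tumor type. Each held 1 Nkx2-1 peak of positive tumors, a tumor type in which no H3K4me3 was called there. They were 1000 and 400 bp wide. Mappability and the inputs were not examined, so whether reads collect at these 2 regions without the mark or the factor was not tested. The third, chr4:6397201-6400400 with 132 reads per kb, had H3K27ac over 56.3% of its length in positive tumors and 100% in deleted tumors, together with 1 deleted-tumor Foxa1/2 peak.

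Islands present in both lists were mostly narrower in deleted tumors. A one-to-one match was found for 26253 islands, 64.5% of the positive list and 86.8% of the deleted list. Of these, 21704 (82.7%, interval 82.2 to 83.1) were narrower in deleted tumors, 11.0% had equal width and 6.32% were wider. The median ratio of deleted to positive width was 0.778, with quartiles of 0.625 and 0.900, and the median change was -400 bp, which is 2 windows. The share narrower lay between 80.6% and 84.5% on the 19 autosomes, and the median ratio between 0.750 and 0.800. The cuts of the positive list leave the width of each remaining island as it was, so they do not bear on whether depth moves the widths, which was not tested. With the positive islands limited to the same covered bases, 83.8% (densest islands used) or 87.1% (islands with most reads used) of the matches were narrower.

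By the median width ratio, weak islands narrowed more in proportion than dense ones, up to decile 8. The median width ratio was 0.571 in density decile 1, 0.667 in decile 5, 0.800 in decile 8 and 0.857 in decile 10. Ranking by the positive list favours islands that happen to be wide or dense in that list, so the matches were also ranked by density in the deleted list. There the ratio was 0.667 in decile 1, 0.839 in decile 8 and 0.778 in decile 10, so the climb from weak to dense islands was present up to decile 8 in both rankings and the further climb to decile 10 was not. The share of matches narrower by any amount went the other way in that ranking, from 79.2% in decile 1 to 95.3% in decile 10. In absolute terms wide islands lost most. Matches over 5000 bp in the positive list had a median change of -1600 bp and 93.4% were narrower, whereas of those up to 600 bp 28.0% were narrower and 23.1% wider. Classes by positive width favour islands that are narrow or wide in that list alone. By the mean width of both lists, 55.5% of matches up to 600 bp were narrower and 3.52% wider, and the median change over 5000 bp was -1200 bp.

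The trimming was symmetric. The left edge (lower coordinate) lay further in for 66.7% of matches and the right edge for 66.6%, each with a median trim of 200 bp and quartiles of 0 and 400 bp. Both edges were trimmed in 46.2% of matches and 1 edge alone, with the other unchanged, in 32.6%. The deleted island lay wholly inside the positive island in 86.4%. Islands also broke up: 1351 positive islands, with a median width of 6800 bp, overlapped 2 or more deleted islands (at most 6), and these pieces left a median of 0.700 of the island covered. The converse, a deleted island joining 2 or more positive islands, occurred 83 times.

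The greatest loss of width was at chr2:116944601-116976000, a positive island of 31400 bp of which 7200 bp remained at chr2:116945001-116952200. Its reads went from 7421 to 3782. Read density was 236 reads per kb over the 31400 bp and 525 over the remaining 7200 bp, so these densities are of unlike stretches. H3K27ac cover of the positive island went from 87.3% to 43.9%, while H3K4me1 cover was 97.5% in both tumor types. The next were chr13:73603801-73623600, from 19800 to 4800 bp, and chr7:87902401-87914800, from 12400 to 600 bp. Both of these were fully under H3K27ac and H3K4me1 in both tumor types and each held 4 Nkx2-1 peaks, so here the H3K4me3 island shrank under H3K27ac and H3K4me1 islands that were still called throughout.

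Matches that gained width did so by less. The greatest gain was at chr1:74200401-74202200, from 1800 to 5200 bp, followed by chr4:125701201-125703200, from 2000 to 5000 bp, and chr16:97830601-97833600, from 3000 to 5800 bp. The first 2 had nearly equal densities in both lists, 67.8 and 64.2 reads per kb for the first and 77.0 and 74.4 for the second. All 3 positive islands were fully under H3K27ac in both tumor types. H3K4me1 cover went from 100% to 44.4% at the first and from 100% to 0% at the second, and was 100% in both tumor types at the third. H3K27me3 covered 100% of the second in both tumor types, and at the third its cover went from 0% to 100%.

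The rank of read density was largely the same in both lists. Across the 26253 matches Spearman's rho was 0.943 for density, 0.957 for read count and 0.873 for width, given as descriptions since matched islands share their sequence and hence mappability. The agreement rested on the contrast between weak and dense islands and on the order among the dense ones. In positive density deciles 6 to 10, which start at 96.1 reads per kb and still span that contrast, rho was 0.938. In deciles 8 to 10 it was 0.829. In deciles 1 to 5, a narrow range from 27.5 to 96.1 reads per kb, it was 0.386. Ranked among the matched islands alone, 73.9% stayed within 10 percentile points and 2.13% moved by over 25. Of decile 10 of matched islands in positive tumors, 64.3% (62.4 to 66.1) were in decile 10 in deleted tumors, and 94.1% were within 1 decile of it. In decile 3 of the matched islands 29.5% stayed in their decile.

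Within the whole lists the matched islands ranked lower in deleted tumors, by a median of 10.4 percentile points. The weak islands that ranked below them in the positive list had largely no counterpart in the deleted list, which by construction lowers the percentiles of the islands that remain. In the ranking among the matched islands the median shift was -0.31 points.

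**Figure D3:**
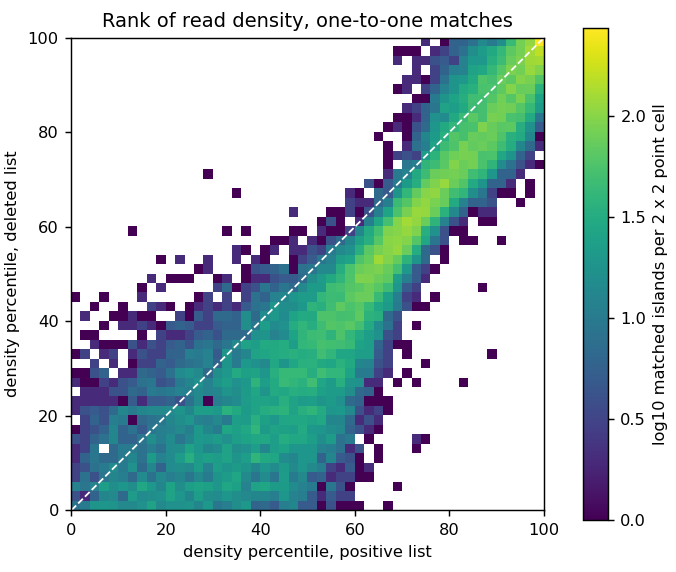
Percentile of read density within the positive list (x) and the deleted list (y) for one-to-one matched islands, colored by the log10 number of islands per cell of 2 by 2 points, with a dashed line at equal percentile. Most islands lie below the line, by a median of 10.4 points, and the band is narrower near percentile 70 of the positive list than near 40 or near 84.

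The loss of reads in matched islands also varied with density. Ranked by positive density, the median ratio of deleted to positive read counts was 0.777 in density decile 10, 0.551 in decile 7, 0.438 in decile 5 and 0.513 in decile 1. The ratios include the difference in depth between the lists, so only their order is read here. Ranked by density in the deleted list, they went from 0.360 in decile 1 to 0.786 in decile 10. Weak and middling islands thus had proportionally fewer reads in deleted tumors than dense ones in both rankings, and the order among deciles 1 to 5 differed between them. The counts are of whole islands, so narrowing enters them. Density itself, which narrowing raises, had a median ratio of 0.804, and 20.1% of matches were denser in deleted tumors. Ranked by positive density, its median ratio was 0.907 in decile 1, 0.643 in decile 5, 0.628 in decile 6 and 0.911 in decile 10. Ranked by deleted density, it was 0.550 in decile 1 and 1.02 in decile 10. Per kb, the weakest islands thus had the lower ratio in the deleted ranking only.

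By percentiles of the whole lists, 46.0% of matches stayed within 10 points and 3000 (11.4%) moved by over 25, with the downward median shift given above. Among the 20206 matches at least 1000 bp wide in both lists, 14.2% had a higher density percentile in deleted tumors. The greatest rise was at chr2:163332601-163334200, from percentile 13.9 to 59.5. This island had 79 reads over 1600 bp in positive tumors and 740 reads over 3800 bp in deleted tumors. H3K27me3, the mark of Polycomb-silenced chromatin, covered 100% of it in positive tumors and none of it after deletion, while H3K4me1 went from 0% to 100% and H3K27ac from 62.5% to 100%. It held no Nkx2-1 peak, no positive-tumor Foxa1/2 peak and 1 deleted-tumor Foxa1/2 peak. All 4 marks at this region thus differed between the tumor types.

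The second rise, at chr15:74545201-74547000, went from 113 to 996 reads and from percentile 29.9 to 71.8. It was fully under H3K27ac and H3K4me1 in both tumor types. The third, at chr13:99303801-99305200, went from 60 to 110 reads and from percentile 5.93 to 44.0, and H3K27ac cover there went from 0% to 100% while H3K27me3 covered it fully in both. As at the first, both held 1 deleted-tumor Foxa1/2 peak and no positive-tumor one. The chr15 island also held 1 Nkx2-1 peak, and the chr13 island held none.

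The greatest falls include the same downward shift. The island at chr3:127546001-127548400 went from 513 reads, or 214 per kb, to 36 reads, or 30.0 per kb, and from percentile 67.8 to 1.79. That at chr19:32273601-32277800 went from 947 to 56 reads and from percentile 68.7 to 5.93. That at chr11:54058401-54064200 went from 1669 to 99 reads and from percentile 73.1 to 12.7. All 3 held Nkx2-1 and positive-tumor Foxa1/2 peaks, and H3K27ac still covered at least 91.7% of each in deleted tumors. The chr19 and chr11 islands also held 1 deleted-tumor Foxa1/2 peak each, and the chr3 island held none.

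Lost islands did not lie beside kept ones more often than kept islands of the same density did. Of the lost islands, 15.5% (14.9 to 16.1) had a kept island within 2000 bp, against 13.7% (13.3 to 14.1) of the kept islands with another kept island that near, and the lost share was the higher on 17 of 19 autosomes. Within density deciles the order turned. In decile 1 the shares were 20.8% of lost and 23.8% of kept islands, with overlapping intervals and the lost share lower on 11 of 19 autosomes. In decile 3 they were 13.8% (12.6 to 15.2) and 21.5% (19.4 to 23.7), the lost share being lower on 18 of 19. In decile 6 they were 8.83% and 12.8%. In each of deciles 1 to 6 the lost share was the lower. Among kept islands the share with a near kept neighbour was 8.82% in decile 10, and the lost islands hold almost none of these dense ones.

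The median gap to the nearest kept island was 11.4 kb for lost and 11.8 kb for kept islands. Within density lost islands were the farther in each of deciles 1 to 6, for example 12.0 against 8.0 kb in decile 3 and 16.2 against 11.8 kb in decile 6. Of all lost islands, 47.0% of the lost islands had a kept island within 10000 bp. As immediate neighbours along the chromosome, 84.2% of the lost and 90.5% of the kept islands had at least 1 kept island. Lost islands lay nearer to each other than kept islands lay to lost ones: 12.4% (11.9 to 13.0) had another lost island within 2000 bp, against 7.36% of kept islands. Within density the intervals were apart in deciles 1 and 2 (16.4% against 11.4% in decile 1), overlapped in deciles 3 to 5, and in decile 6 the order turned, at 5.70% and 6.24%.

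Runs of lost islands with no kept island between them were mostly short. There were 7995 runs, of which 5097 were a single island, and 211 runs of 5 or more held 9.56% of all lost islands. The longest runs counted 12 lost islands each, over 485 kb at chr17:30159201-30644400 and over 110 kb at chr8:130905601-131015600, with median densities of 56.8 and 42.8 reads per kb.

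Kept islands next to a lost one were trimmed more on the side that faced it. For 1760 one-to-one matches with a lost island within 2000 bp on 1 side, the facing edge was trimmed by a mean of 712 bp (median 400) and the other edge by 446 bp (median 200). The facing edge was trimmed more in 51.1% (48.7 to 53.4), the other edge more in 34.4% (32.2 to 36.7), and 14.5% were trimmed alike. Edges facing a kept neighbour were not compared, so whether this is particular to lost neighbours was not tested. A deleted island that reached into the neighbour would have made that neighbour kept. Long extensions on the facing side are therefore left out by definition.

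**Figure D4:**
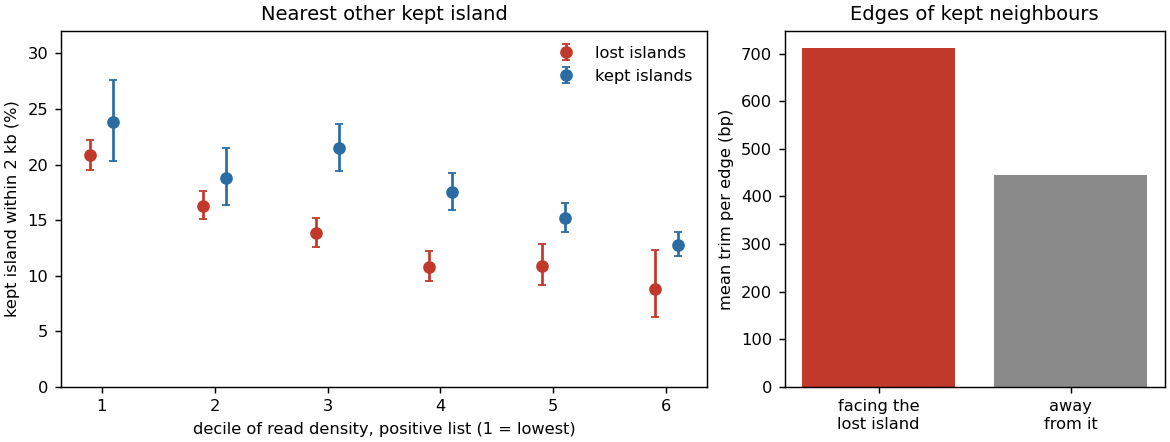
Left, share of lost (red) and kept (blue) islands with another kept island within 2 kb, by decile of read density in the positive list, with 95% Wilson intervals. Right, mean trim in bp of the edge facing a lost island and of the opposite edge in 1760 kept islands. Lost islands are below kept islands in each of deciles 1 to 6, and the facing edge lost 712 bp against 446 bp.

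H3K4me1 and H3K27ac were called at most lost and most kept islands, and at lost islands they were mostly still called in deleted tumors. H3K4me1 overlapped 95.6% of the lost islands in positive tumors and 90.6% once Nkx2-1 was deleted, and 97.98% and 97.6% of the kept ones. H3K27ac overlapped 88.3% in positive and 72.2% (71.4 to 72.9) in deleted tumors, while at kept islands it overlapped 88.4% and 87.4%. Both marks were called in both tumor types at 69.5% of lost and 84.1% of kept islands. None of the 3 other marks was called in deleted tumors at 4.56% of lost islands, against 0.858% of kept ones. The kept islands include the dense ones, and within density deciles 1 to 5 the differences were smaller. There both marks were called in both tumor types at 70.1% of lost and 77.4% of kept islands. None of the 3 was called in deleted tumors at 4.39% and 1.72%. The usual course at a lost island was therefore a missing H3K4me3 call with H3K27ac and H3K4me1 still present.

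H3K27ac was nevertheless missing more often with H3K4me3 than without. Of the lost islands with H3K27ac in positive tumors, 81.2% (80.5 to 81.9) had it in deleted tumors, against 96.6% (96.4 to 96.8) of the kept ones. Lost islands are weaker than kept ones, so the comparison was made within density deciles. It was 85.5% and 98.3% in decile 1 and 70.5% and 91.6% in decile 6, lost islands being lower on at least 18 of 19 autosomes in each of deciles 1 to 6. The kept islands in these deciles were also wider, with a median of 1600 bp against 1200 bp for the lost ones in decile 3, and a wider island has more bases in which a mark can overlap; the part of this in the result was not tested. For H3K4me1 the shares were 96.9% and 98.2% in decile 1, with overlapping intervals, and 85.1% and 97.3% in decile 6.

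Foxa1/2 binding showed a larger difference. Of lost islands with a positive-tumor Foxa1/2 peak, 33.1% (31.7 to 34.4) held a deleted-tumor peak, against 61.4% (60.3 to 62.5) of kept islands. In density decile 1 the shares were 34.5% and 72.4%, with median widths of 1600 and 1800 bp, and lost islands were lower on all 19 autosomes. In decile 6 they were 20.4% and 54.7%, with lost islands lower on 17 of 19. Both Foxa1/2 libraries of positive tumors came from males and both of deleted tumors from females, so for this factor tumor type and sex cannot be told apart, although lost and kept islands were read from the same lists.

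**Figure D5:**
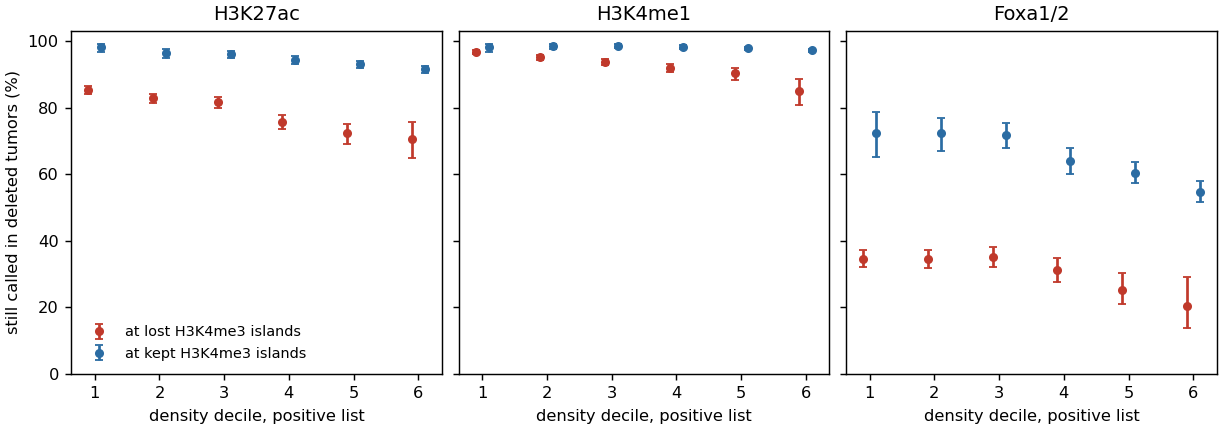
Share of H3K4me3 islands that carried H3K27ac, H3K4me1 or Foxa1/2 in positive tumors and still carried it in deleted tumors (%), for lost (red) and kept (blue) islands by decile of read density, with 95% Wilson intervals. Foxa1/2 shows the widest gap, 34.5% against 72.4% in decile 1, and H3K4me1 the narrowest.

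H3K27me3 was rarer at lost than at kept islands, and most of it was called in both tumor types. It overlapped 9.63% of lost and 17.1% of kept islands in positive tumors, and 11.8% and 20.6% in deleted tumors. Islands with H3K27me3 in positive tumors were lost less often than others of the same density, at 78.1% (72.8 to 82.7) against 87.9% (86.9 to 88.9) in decile 1 and 45.4% against 51.5% in decile 4. In decile 3 the intervals overlapped. A newly called H3K27me3 island, present in deleted tumors only, was found at 2.66% of lost and 3.96% of kept islands.

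Nkx2-1 peaks of positive tumors were about as common at lost islands (41.6%) as at kept ones (40.6%) and much rarer at gained ones (8.81%, interval 7.20 to 10.7). At equal density, islands with a peak were lost slightly more often in each of deciles 1 to 6, but the intervals were apart in deciles 1 and 2 only. In decile 1 the shares were 90.8% (89.3 to 92.0) and 84.7% (83.2 to 86.1), the share with a peak being higher on 17 of 19 autosomes. In decile 6 they were 9.59% and 8.20%, and the share with a peak was lower on 8 of 19. In decile 4 the shares were 52.2% and 49.5%, with overlapping intervals, although the islands with a peak were the wider ones, with a median of 1600 against 1000 bp. Foxa1/2 peaks of deleted tumors were found at 24.2% of gained islands, 19.6% of kept and 13.2% of lost ones. Within density deciles of the deleted list, gained islands had them more often than kept ones in decile 1 (33.2% against 26.7%) and less often in decile 2 (18.2% against 23.7%) and decile 3 (15.6% against 20.1%), with overlapping intervals in deciles 2 and 3.

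Narrowing went further at weak islands with Nkx2-1 peaks, and in part at those with positive-tumor Foxa1/2 peaks. In density decile 3 the median width ratio was 0.500 (95% interval of the median 0.500 to 0.556) for matches with an Nkx2-1 peak and 0.667 (0.625 to 0.667) for those without, and in decile 10 it was 0.857 for both. Islands with a peak were wider, so the ratio was compared within classes of density and width. In deciles 1 to 5, at widths over 2000 and up to 3000 bp, it was 0.462 with and 0.500 without a peak, and at widths over 3000 and up to 5000 bp 0.366 and 0.421. It was lower with a peak in all 8 combinations of deciles 1 to 5 or 6 and 7 with 4 width classes over 1000 bp, by 0.028 at least. In deciles 8 to 10 the difference was at most 0.014 in either direction. Positive-tumor Foxa1/2 peaks gave a similar order in part. In decile 3 the ratio was 0.545 with and 0.632 without a peak. Within width classes it was lower with a peak in 6 of the 8 combinations, by up to 0.094. In the other 2 it was equal, and these held most of the weak matches with a peak. They were deciles 1 to 5 at widths over 1000 and up to 2000 bp (1063 with a peak) and up to 3000 bp (528). In deciles 8 to 10 it was equal or higher with a peak, by up to 0.013. With H3K27me3 the ratio was higher in 8 of 11 classes and lower in 2, for example 0.765 with and 0.667 without it in deciles 6 and 7 at widths over 3000 and up to 5000 bp.

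The bases that matched islands lost differed from those they kept. The core, in both lists, came to 52.6 Mb and the trimmed bases to 19.2 Mb. H3K27ac covered 88.4% of the core in positive and 87.2% in deleted tumors, and 74.5% and 64.3% of the trimmed bases. H3K4me1 covered 94.1% and 93.2% of the trimmed bases, so most flanks without an H3K4me3 call in deleted tumors were still called for H3K4me1. H3K4me1 islands allowed gaps of 600 bp and H3K4me3 and H3K27ac islands gaps of 200 bp, and the trimmed stretches had a median of 400 bp. A trimmed stretch can thus lie in a gap inside an H3K4me1 island, and the part of this in the cover was not tested. Nkx2-1 summits stood at 200 per Mb in the core, 77.0 in the trimmed bases and 280 in lost islands. Foxa1/2 summits in deleted tumors were 83.8 per Mb in the core, 32.6 in the trimmed bases and 82.7 in lost islands, against 116, 63.9 and 231 in positive tumors.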

How the data were processed

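Lists were made by the authors from single-end reads of 40 to 50 nucleotides. Bowtie, MACS 1.4.2, SICER 1.1 and build mm9 are named, without a role for each, per the submitters' processing notes. Per the file names, libraries were merged, islands have an FDR of 0.01, windows of 200 bp and gaps of 200 bp (H3K4me3, H3K27ac) or 600 bp (H3K4me1, H3K27me3), and peaks a p of 1e-06. Each deposited island carries the authors' read count, not scaled for depth, and each deposited peak a score, which was not used to compare lists. Whether inputs were subtracted from the counts, and the total depth, are not given in the sources used here. The 9 inputs were not analysed here.

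All 22 files of 11 groups formed 11 identical pairs, and each pair was used once. Island width was the end minus the start plus 1, density the count per kb of width, and deciles were equal numbers of islands ranked by density. A mark or factor was present at an island if it overlapped by at least 1 bp. A base of a matched island was trimmed if it was in the positive list only. Gaps were measured between island edges. Matching, trimming and gaps were tested on simulated lists with known answers. Python 3.11.15, numpy 2.4.6, pandas 2.3.3, scipy 1.17.1 and matplotlib 3.10.9 were used.

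The members, classes and lists were chosen with earlier results of these data known. Regions were named by rule: the 3 densest lost and gained islands, the 3 lost islands with most reads, the 3 matches with the greatest loss and gain of width, and, among matches of at least 1000 bp in both lists, the 3 with the greatest rise and fall of density percentile. The longest runs of lost islands were named after their values were seen. The gene annotation available here is of GRCm38, not of mm9, so regions were not assigned to genes and no sequence was used.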

Additional observations from a re-analysis of the deposited data

How the results depend on the processing

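Over 61 alternatives for 14 results, 30 lay within the 95% interval of the value reported, and the cause of the others was not tested beyond what each cut removes. With the upper 50% of each list by read count, the lost share was 27.02%, gained 0.364%, narrower 86.1%, width ratio 0.808, lost in the lowest density decile 94.4%, density rho 0.880 and lost islands beside a kept one 10.0%. With the positive list cut to as many islands as the deleted one, these were 16.7% lost, 11.6% gained, 85.0% narrower, 75.3% in the lowest decile, rho 0.948 and 18.2% beside a kept one. Cut to equal covered length (chosen after seeing the data), by density or by reads, 0.257% or 0.466% were lost, 40.9% or 47.4% gained and 83.8% or 87.1% narrower, with width ratios of 0.818 or 0.813. Leaving out positive islands under the scaled count limit (also chosen after seeing the data) gave 30.2% lost and 3.98% gained. With deciles by read count, 80.7% of the lowest decile were lost, and rho of read counts was 0.957. Gaps of 1000 and 5000 bp gave 8.60% and 30.3% of lost islands beside a kept one. With at least 50% of a lost island covered, H3K27ac was present at 87.5% (positive) and 70.4% (deleted), and with peak midpoints inside, Nkx2-1 at 39.3% and deleted-tumor Foxa1/2 at 12.0%. An overlap of 50% of the shorter island and the inclusion of chromosome X left each of the 8 island results within its interval.

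No paired analysis was possible because each tumor type has 1 merged list, and for the same reason no library was left out. Reads in islands limit the weak islands most: 10% of the deleted islands held 31 reads or fewer.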
